A study of Homo sapiens with 9 samples.

Results

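Genes that moved the same way after knockdown of E2F1 and after knockdown of E2F3 were sought in HK1, an established cell line from a human nasopharyngeal carcinoma. Cells received siRNA at 100 nM for 48 h, and RNA was sequenced in 9 libraries: 3 after a non-targeting control siRNA, 3 after siRNA against E2F1 and 3 after siRNA against E2F3. The 6 knockdown libraries formed one side and the 3 control libraries the other. Levels are FPKM (fragments scaled by transcript length and library size). The test covered 13777 genes that reached 1 FPKM in 3 or more libraries. All 6 knockdown values lay above all 3 control values in 1825 genes (13.2% of those tested) and below them in 1115 (8.09%). These 2940 genes are the members described here. The labels name each target but give no siRNA sequence, so a single siRNA and a pool per target cannot be told apart. They list no untransfected cells. Because both knockdowns were compared with the same 3 control libraries, a change made by both siRNAs and a change in the cells given the control siRNA cannot be told apart. No label ties the libraries of a group to separate cultures, and p-values therefore rest on the spread among these 9 libraries, which may be technical. In bulk RNA, fewer cells of a kind and less RNA per cell cannot be told apart.

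E2F1 and E2F3 are transcription factors that bind DNA with a DP partner and are held inactive by the retinoblastoma protein. When cyclin-dependent kinases phosphorylate that protein, the freed E2Fs switch on genes for S phase entry, DNA replication and nucleotide supply. Other family members, among them E2F4 to E2F6, are known mainly as repressors of overlapping genes, often together with the pocket proteins RBL1 and RBL2. An siRNA is a short double-stranded RNA that loads into Argonaute and lowers the transcripts it pairs with, and it can also lower transcripts with partial matches.

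Each gene was tested with limma on log2(FPKM + 1), a scale that understates changes of low genes, as the mean of the 2 knockdown groups minus control. The pooled change passed at an adjusted p under 0.05 in 5002 genes (36.3%), 2699 higher (19.6%) and 2303 lower (16.7%). A gene is said below to have risen when it passed and all 6 knockdown values lay above control (1715 genes, 12.4%), and to have fallen when it passed and all 6 lay below (1061 genes, 7.7%). Together these are 2776 genes (20.1%). Of the members, 110 above and 54 below did not pass. Another 984 genes passed as higher and 1242 as lower with libraries that overlapped control. Since the members were picked by the values that the pooled test reads, their adjusted p is a description of size against spread. The difference between the E2F3 and E2F1 siRNA groups uses no control library and was tested on its own.

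The siRNA against each target lowered its transcript, and neither target is a member. E2F1 was at 19.85, 19.53 and 20.2 FPKM in control, 7.17, 7.95 and 7.33 with E2F1 siRNA and 21.21, 22.97 and 21.0 with E2F3 siRNA. E2F3 was at 24.74, 27.17 and 24.42 FPKM in control, 29.19, 27.78 and 29.23 with E2F1 siRNA and 12.61, 10.52 and 11.02 with E2F3 siRNA. Each transcript was thus low in the libraries of its own siRNA and above the control range in those of the other. E2F5 and E2F6 fell after both siRNAs. E2F5, a partner of RBL2 in quiescent cells, was at 29.05 to 32.17 FPKM in control, 15.25 to 18.62 with E2F1 siRNA and 10.38 to 10.64 with E2F3 siRNA (pooled log2 -1.15, SE 0.06; limma adjusted p = 1.46e-06). Its exons overlap C8orf59 on the opposite strand, and the files do not say whether counting used strand. E2F6 (chr2:11444375-11466177 in GRCh38), a repressor that does not bind pocket proteins, was at 13.93 to 16.02 FPKM in control, 10.14 to 11.22 with E2F1 siRNA and 10.41 to 12.2 with E2F3 siRNA (log2 -0.42, SE 0.07; adjusted p = 0.00101). E2F2, E2F4, E2F7 and E2F8 each had libraries that overlapped control.

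Of 20 genes of the E2F, DP and RB family and the MuvB complex, 4 rose (20% against 12.4% of all genes). E2F5 and E2F6 fell (10% against 7.7%). The list's median pooled log2 change was 0.04, against 0.02 over all genes tested. By siRNA the list's median was 0.21 for E2F1 and -0.02 for E2F3. RBL1 (chr20:36996349-37095995), which encodes the pocket protein p107, was at 12.64, 15.92 and 13.39 FPKM in control, 28.03, 25.7 and 25.53 with E2F1 siRNA and 25.83, 25.01 and 24.07 with E2F3 siRNA. The knockdown libraries lay well above control and the siRNA groups overlapped (log2 0.84, SE 0.07; limma adjusted p = 1.65e-05). The difference between the knockdowns was -0.08 (limma adjusted p = 0.467). TFDP1, the DP partner of activating E2Fs, rose from 133.54 to 138.56 FPKM in control to 161.29 to 199.7 after knockdown (log2 0.39), and RBBP4, a histone-binding subunit of MuvB and of chromatin complexes, rose by 0.40. Exons of RBBP4 overlap SYNC on the opposite strand. The last riser, LIN54, the DNA-binding subunit of MuvB, changed by 0.18 and is named only to complete the count. With RLE scaling 4 of the list fell, as with a correction for GC content and length.

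Of 51 DNA replication genes, 9 rose (17.6% against 12.4% of all genes) and 3 fell (5.88% against 7.7%), with a median log2 change of 0.03. This pooled median joins 0.15 with E2F1 siRNA and -0.05 with E2F3 siRNA. TIPIN, a fork protection factor, was at 20.5, 18.41 and 20.31 FPKM in control, 34.95, 33.66 and 35.13 with E2F1 siRNA and 26.99, 23.99 and 21.98 with E2F3 siRNA (log2 0.53; adjusted p = 1.78e-04). ORC1, of the origin recognition complex, rose by 0.39 and MCM7, of the replicative helicase, by 0.25. TIPIN, ORC1 and MCM7 were each higher after E2F1 than after E2F3 siRNA. The 3 fallers were POLD3 (log2 -0.36), a subunit of polymerase delta, CLSPN (log2 -0.31), the checkpoint adaptor claspin, and CDC6 (log2 -0.26), which loads the helicase. With the 6 knockdown libraries fitted as 1 group, so that the gap between the siRNAs counts as spread, 5 rose and 1 fell. Calls were then lost for TIPIN (limma adjusted p = 0.0527), POLD3 (limma adjusted p = 0.219) and CDC6 (limma adjusted p = 0.149). Without control replicate 3 the fallers numbered 7, and with scaling by the RLE method 5.

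Promoters of these genes are shown because E2F sites near the start are the textbook mark of direct E2F targets. RefSeq promoters on GRCh38.p14 (250 bases before to 50 after a gene's start) were searched on both strands for TTTCCCGC, TTTCGCGC, TTTGCCGC and TTTGGCGC, 4 spellings of the E2F motif that overlap no other motif searched. A match was found for 656 of 9762 genes with a promoter entry (6.72%) and for 23 of 44 replication genes with one (52.3%). Of genes that rose or fell, under 80% had an entry (78.0% and 73.4%), so a comparison of motif shares between them is void. The same holds for a comparison with all genes tested, of which 70.9% had an entry, and each share is given as a description. Each sequence is 30 bases on the gene's strand with 1 match in capitals.
RBL1 (rose): cagctgcagatTTTCGCGCgctttggcgca
TIPIN (rose): ccccgcacggaTTTGGCGCcaaacgctgcg
GMNN (rose): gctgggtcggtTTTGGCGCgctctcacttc
CDC25A (rose): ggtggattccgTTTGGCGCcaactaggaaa
CLSPN (fell): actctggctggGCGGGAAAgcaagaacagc
The windows are chr20:37096005-37096034 on the minus strand for RBL1, chr15:66356733-66356762 on the minus strand for TIPIN, chr6:24775322-24775351 on the plus strand for GMNN, chr3:48188443-48188472 on the minus strand for CDC25A and chr1:35769965-35769994 on the minus strand for CLSPN. In CLSPN the match reads on the opposite strand. The motif thus stood near the start of genes that rose and of genes that fell. Matches not shown were found in CDC6, EXO1 and FANCD2, which fell, and in MCM2, MCM7, POLE4 and TFDP1, which rose. Among replication genes with an entry, 5 of 9 that rose and 2 of 2 that fell had a match, again as a description. A match is a description of these letters and not a binding site. GMNN, an inhibitor of origin licensing, rose from 85.98 to 95.23 FPKM in control to 113.92 to 143.83 after knockdown. GMNN and CDC25A (log2 0.25) were picked for their promoters with their values known.

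Of 58 mitotic genes, 7 rose, a share (12.1%) close to that of all genes, and 19 more passed as higher with libraries that overlapped control. None fell by the limma rule, and 0 of them had a lower pooled mean at an unadjusted p under 0.05. The list's median was 0.15 pooled, 0.36 after E2F1 siRNA and -0.03 after E2F3 siRNA. PRC1, which bundles spindle midzone microtubules, was at 78.97, 79.9 and 83.05 FPKM in control, 137.88, 130.14 and 135.33 with E2F1 siRNA and 102.27, 95.19 and 108.06 with E2F3 siRNA (log2 0.53; adjusted p = 1.46e-05). Exons of PRC1 overlap AC068831.7 on the same strand. SKA2, of a kinetochore complex, rose by 0.63 and BIRC5, the survivin subunit of the chromosomal passenger complex, by 0.58. After correction for GC content and length 11 of the 58 rose. A match to the E2F motif was found for 2 of 50 mitotic genes with a promoter entry (4%).

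Of 29 cyclins, their kinases and inhibitors, 4 rose (13.8% against 12.4% of all genes) and 5 fell (17.2% against 7.7%). CCND1, the D-type cyclin of early G1, was at 75.33, 78.02 and 79.83 FPKM in control, 59.52, 57.42 and 59.52 with E2F1 siRNA and 38.11, 40.0 and 37.2 with E2F3 siRNA (log2 -0.70, SE 0.04; adjusted p = 1.28e-06), with all 6 knockdown values lower and the E2F3 siRNA values lowest. CDKN1A, the inhibitor p21, fell by 0.64, from 96.97 to 100.0 FPKM in control to 55.94 to 69.61. CDKN1B, the inhibitor p27, fell by 0.66 pooled, with log2 changes of -1.14 after E2F1 siRNA and -0.18 after E2F3 siRNA. It did not pass with the knockdowns as 1 group (limma adjusted p = 0.157). CCNB2, a mitotic cyclin, rose by 0.37. Fitted as 1 group, 1 cyclin list gene rose and 3 fell, and under RLE scaling 2 rose. Exons of CCND1 overlap LTO1 on the opposite strand.

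Nucleotide synthesis genes rose in 6 of 28 (21.4% against 12.4% of all genes) and fell in 2 (7.14% against 7.7%). PRPS1, which makes the ribose donor of nucleotides, rose from 69.62 to 78.07 FPKM to 86.99 to 106.62 (log2 0.38). SHMT2, the mitochondrial serine hydroxymethyltransferase, fell by 0.57, from 232.31 to 238.98 FPKM in control to 170.62 to 191.41 with E2F1 siRNA and 133.35 to 140.63 with E2F3 siRNA. Under RLE scaling 3 rose and 4 fell, and with the knockdowns as 1 group 3 rose. The number that fell was 5 without control replicate 1 or without E2F3 siRNA replicate 3, and 4 without E2F1 siRNA replicate 2. Of 33 recombination and Fanconi repair genes, 3 rose (9.09% against 12.4% of all genes) and 3 fell (9.09% against 7.7%). The list's median was -0.06 pooled, 0.105 with E2F1 siRNA and -0.127 with E2F3 siRNA. RAD50, of the break-sensing MRN complex, rose by 0.28. It shares exon bases on the same strand with AC116366.3, whose pooled change was -0.32. The risers numbered 5 without E2F1 siRNA replicate 2 or after correction for GC content and length, and the fallers 5 under RLE scaling.

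The largest rises were sought among protein-coding genes with a mean of at least 5 FPKM in the higher of control and pooled knockdown. Of the 12 taken, 6 had a control mean under 5 FPKM and met this floor only where they were high (HABP4, ZNF845, ZNF629, ZNF761, PDXP and ZW10). The first was TPM4 (chr19:16067021-16103005), a tropomyosin that coats actin filaments. It was at 85.89, 90.61 and 86.65 FPKM in control, 323.54, 323.7 and 335.97 with E2F1 siRNA and 369.03, 350.1 and 362.93 with E2F3 siRNA. No knockdown library came near the control range (log2 1.96, SE 0.03; adjusted p = 1.02e-09). OGFR (chr20:62804835-62814000), a receptor for opioid growth factor, was at 16.66, 12.47 and 16.57 FPKM in control, 68.2, 72.47 and 68.66 with E2F1 siRNA and 41.45, 41.21 and 39.88 with E2F3 siRNA (log2 1.76; adjusted p = 5.59e-07). It was lower after E2F3 than after E2F1 siRNA (log2 -0.76). GANAB (chr11:62624826-62646726), the catalytic subunit of glucosidase II that trims glycans in the endoplasmic reticulum, was at 63.07, 61.84 and 61.09 FPKM in control, 187.02, 196.44 and 191.52 with E2F1 siRNA and 182.33, 193.49 and 181.01 with E2F3 siRNA (log2 1.59; adjusted p = 3.24e-09). The siRNA groups overlapped each other.

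PRDX4 (chrX:23664262-23686399), a peroxiredoxin of the endoplasmic reticulum, rose from 36.89 to 38.69 FPKM to 95.86 to 111.73 (log2 1.44). ZW10 (chr11:113733187-113773811), a kinetochore checkpoint protein, rose from 4.43 to 5.17 FPKM to 13.07 to 15.86 (log2 1.43). HABP4 (chr9:96450201-96491336), a protein that binds hyaluronan and RNA, was at 1.82, 1.79 and 2.18 FPKM in control, 6.49, 6.57 and 7.33 with E2F1 siRNA and 7.31, 6.62 and 6.52 with E2F3 siRNA. All 6 knockdown values lay far above control and the siRNA groups overlapped (log2 1.41; difference between the knockdowns, limma adjusted p = 0.977). PDXP, pyridoxal phosphatase, rose from 2.47 to 5.32 FPKM to 9.48 to 15.15 (log2 1.52), and its exons overlap Z83844.3 on the same strand. Another 4 of the 12 were zinc finger genes, described below.

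**Figure D1:**
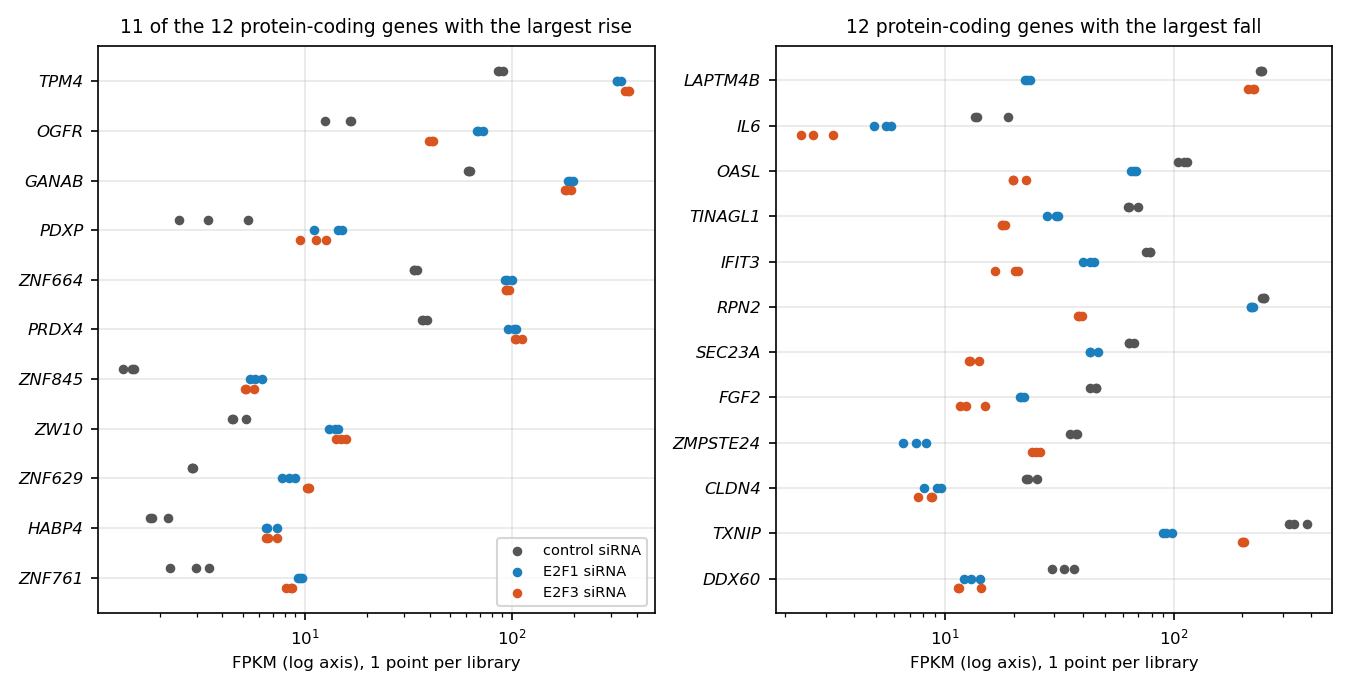
FPKM on a log axis in each library for 11 of the 12 protein-coding genes with the largest rise (left) and the 12 with the largest fall (right), 1 point per library, control siRNA grey, E2F1 siRNA blue and E2F3 siRNA orange. TPM4 sits at 85.89 to 90.61 in control and at 323.54 or more in all knockdown libraries; LAPTM4B and RPN2 are each low in 1 knockdown and near control in the other.

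The largest falls were less alike in the 2 knockdowns. LAPTM4B, a lysosomal membrane protein, was at 242.86, 240.04 and 239.43 FPKM in control, 23.59, 22.73 and 22.35 with E2F1 siRNA and 212.02, 223.63 and 221.5 with E2F3 siRNA. Its pooled change of -1.74 joins a change of -3.34 with one of -0.14. RPN2 (chr20:37178410-37241623), a subunit of the oligosaccharyltransferase that attaches N-glycans, showed the opposite pattern at 247.67, 244.6 and 247.89 FPKM in control, 222.08, 216.89 and 217.24 with E2F1 siRNA and 38.18, 39.67 and 38.69 with E2F3 siRNA (log2 -1.40 pooled, -0.17 and -2.64 by siRNA). SEC23A, of the COPII coat, fell by 1.37 and ZMPSTE24, a lamin A processing protease, by 1.36, again unequally in the 2 knockdowns. With the 6 libraries as 1 group the call was lost for LAPTM4B (adjusted p = 0.242), RPN2 (adjusted p = 0.221), SEC23A (adjusted p = 0.0875), ZMPSTE24 (adjusted p = 0.0853) and OASL (adjusted p = 0.0582).

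Among other large falls, CLDN4 fell by similar amounts after each siRNA, while IL6 and TXNIP fell unequally. IL6 (chr7:22725884-22732002), an inflammatory cytokine, was at 13.55, 13.73 and 18.78 FPKM in control, 5.82, 5.54 and 4.88 with E2F1 siRNA and 3.23, 2.34 and 2.63 with E2F3 siRNA (log2 -1.73, SE 0.12; adjusted p = 4.56e-06). CLDN4 (chr7:73799542-73832693), a tight junction claudin, was at 25.13, 23.04 and 22.55 FPKM in control, 9.17, 9.57 and 8.05 with E2F1 siRNA and 7.6, 8.78 and 8.67 with E2F3 siRNA (log2 -1.35). Its siRNA groups overlapped (difference -0.09; limma adjusted p = 0.425). TXNIP, an inhibitor of thioredoxin and of glucose uptake, fell from 319.59 to 382.05 FPKM to 90.19 to 98.25 with E2F1 siRNA and 199.99 to 203.32 with E2F3 siRNA (log2 -1.32). TINAGL1, a matrix protein, fell by 1.46 and FGF2, basic fibroblast growth factor, by 1.37. FGF2 overlaps NUDT6 on the opposite strand.

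How far the siRNA groups lay apart was tested without control. E2F3 and E2F1 siRNA differed past the threshold in 6274 of all genes tested (45.5%), in 595 of 1715 that rose (34.7%) and in 513 of 1061 that fell (48.4%). A requirement that all 6 libraries lie on one side itself limits how far the groups can part, most of all for small changes. Among genes that rose by at least 1 on the log2 scale, 26 of 59 differed between the knockdowns (44.1%), the median absolute difference was 0.196, and 1 differed by at least 1. Among those that fell by at least 1, 39 of 57 differed (68.4%), the median absolute difference was 0.80, and 21 differed by at least 1. The difference between the 2 directions was not tested. The median pooled change was 0.37 over genes that rose and -0.43 over those that fell, and 454 and 421 of them changed by at least 0.5.

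**Figure D2:**
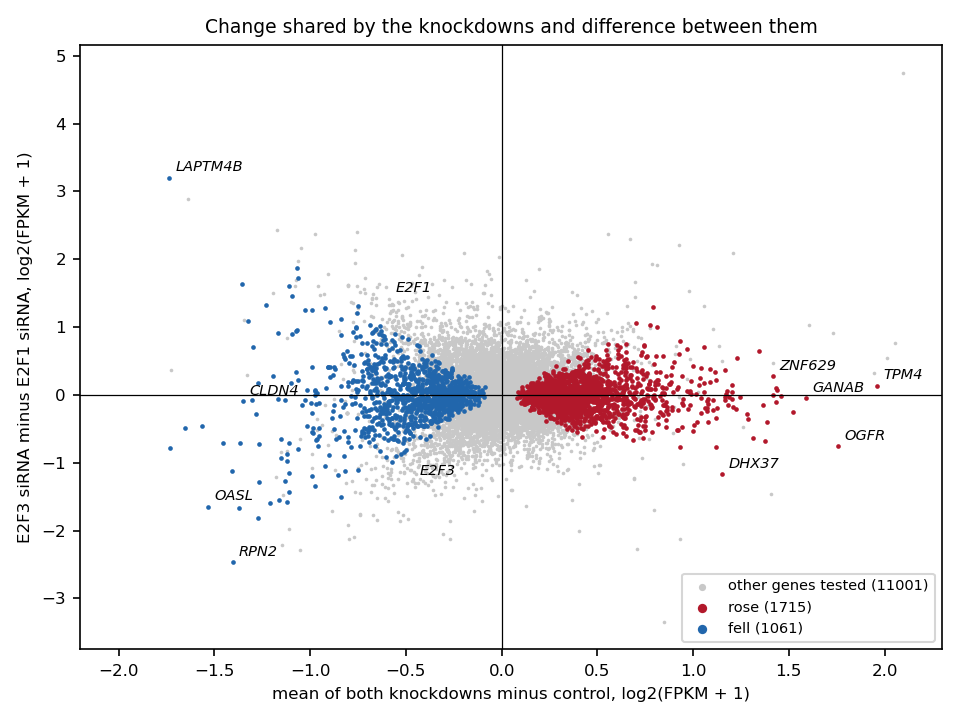
Each point is a gene tested: the mean change of both knockdowns from control (horizontal) and the difference between E2F3 and E2F1 siRNA (vertical), both in log2(FPKM + 1), with the 1715 genes that rose in red and the 1061 that fell in blue. Genes with large rises such as TPM4 and GANAB lie near the horizontal line, while LAPTM4B and RPN2 lie far above and below it; 8 genes with a pooled change under the left limit are not drawn.

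Genes named ZNF and a number encode mostly C2H2 zinc finger proteins, and many carry a KRAB domain that recruits the TRIM28 corepressor to transposable elements. Of 345 tested, 118 rose (34.2%) and 3 fell (0.870%), against 1597 (11.9%) and 1058 (7.88%) of 13432 other genes. Their median pooled change was 0.23, with 0.22 with E2F1 siRNA and 0.27 with E2F3 siRNA, against 0.02 over the other genes, and 283 of them (82.0%) had a pooled change above 0. Many of them lie in clusters on chromosome 19, where 55 of 155 rose (35.5%), and 63 of 190 rose elsewhere (33.2%). Of 798 other genes on chromosome 19, 93 rose (11.7%). ZNF genes are low, so the 291 with a control mean under 13 FPKM were set beside 6656 other genes under that level, of which 108 (37.1%) and 609 (9.15%) rose. The cut reads the control values that also decide a rise, so it is no independent check on level. ZNF risers had control means down to 0.62 FPKM. A gene with a control mean under 1 FPKM was tested only with the help of knockdown libraries. The family was picked with earlier results of these data known.

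ZNF664 (chr12:123971845-124015439) was at 34.92, 33.5 and 33.62 FPKM in control, 100.25, 94.29 and 92.25 with E2F1 siRNA and 96.76, 94.12 and 93.29 with E2F3 siRNA, with the siRNA groups overlapping (log2 1.46, SE 0.04; adjusted p = 1.64e-08). ZNF629 was at 2.89, 2.84 and 2.85 FPKM in control, 8.94, 7.75 and 8.39 with E2F1 siRNA and 10.31, 10.42 and 10.29 with E2F3 siRNA (log2 1.42). ZNF845 rose by 1.43, ZNF761 by 1.37, ZNF714 by 1.18 and ZNF468 by 1.11. Each of these genes had all 6 knockdown libraries well above control. Many ZNF genes are near-identical copies in sequence, and how fragments shared among them were counted is not given in the sources used here, so single members are uncertain. ZNF468 also shares exon bases with ZNF320 and ZNF28, which are at 3.81 and 11.7 FPKM in control. Of the 118, 33 differed between the knockdowns. The fallers were ZNF266 (log2 -0.42), ZNF358 (log2 -0.37) and ZNF513 (log2 -0.34). ZNF358 lost its call without control replicate 3 (log2 -0.29), and ZNF513 lost it when any control library was left out (log2 -0.34 to -0.35), and also without E2F1 siRNA replicate 1 or 3 (log2 -0.30 for each) or E2F3 siRNA replicate 1 or 3 (log2 -0.34 and -0.31). Under RLE scaling 107 rose and 7 fell, and 5 fell without E2F1 siRNA replicate 2. As 1 group 91 ZNF genes rose and none fell by limma, with 4 at an unadjusted p under 0.05 and all 6 libraries below in the 3-group model. The E2F motif was found in 5 of 107 risers with a promoter entry (4.67%) and 21 of 294 tested ones (7.14%).

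**Figure D3:**
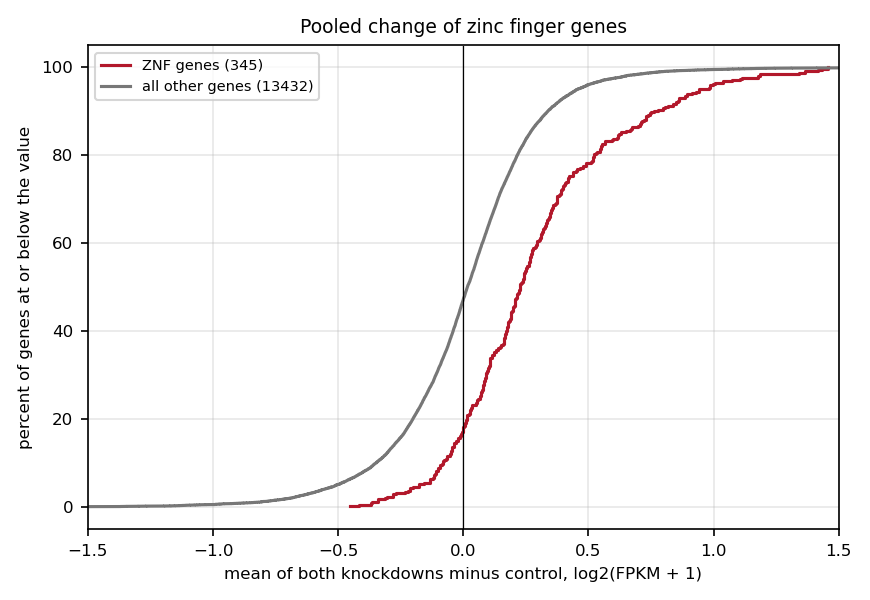
Cumulative percent of genes (vertical) at or below each pooled change in log2(FPKM + 1) (horizontal) for 345 ZNF genes in red and 13432 other genes in grey. The red curve lies to the right, with a median of 0.23 against 0.02.

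Of 52 interferon response genes, 17 fell (32.7% against 7.7% of all genes) and the median was -0.20. None rose by the limma rule, while 6 more passed as lower and 4 as higher with overlapping libraries. A higher pooled mean was seen in 5 at an unadjusted p under 0.05, and 1 rose without E2F3 siRNA replicate 3 or after correction for GC content and length. These genes are induced by interferons and encode antiviral effectors. OASL (chr12:121019111-121039242), which boosts RIG-I signalling, was at 114.21, 104.78 and 111.05 FPKM in control, 65.21, 67.01 and 68.38 with E2F1 siRNA and 19.76, 19.83 and 22.48 with E2F3 siRNA (log2 -1.53, SE 0.05; adjusted p = 9.93e-08). IFIT3, which stabilises IFIT1 on foreign RNA, was at 78.87, 78.83 and 75.32 FPKM in control, 44.86, 39.97 and 43.22 with E2F1 siRNA and 20.31, 16.6 and 20.77 with E2F3 siRNA (log2 -1.41). In both genes E2F1 siRNA libraries lay between control and E2F3 siRNA libraries. IFIT1, which binds viral RNA caps, fell by 1.17, and IFIT2 changed by -1.27. DDX60, a helicase, fell from 29.47 to 36.5 FPKM to 12.13 to 14.19 with E2F1 siRNA and 11.42 to 14.38 with E2F3 siRNA (log2 -1.31), and these ranges overlapped. The RNA sensors DDX58 (RIG-I) and DHX58 (LGP2) fell by 1.11 and 0.49. These were the 2 of 9 sensors of double-stranded RNA that fell (22.2% against 7.7% of all genes).

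Of the 17, 15 differed between the knockdowns, 12 with the larger fall after E2F3 siRNA and 3 after E2F1 siRNA. Fitted as 1 group 8 of the list fell, and calls were lost for IFIT1 (adjusted p = 0.116), IFIT2 (adjusted p = 0.138) and DHX58 (adjusted p = 0.0819). Scaling by RLE or by the upper quartile gave 21. The interferon-stimulated element, spelled GAAA, then 2 bases of any kind, then GAAA, was searched on both strands of the promoters and found in 380 of 9762 genes (3.89%). Since 76.9% of the list had an entry, its share in the list is void as a comparison, and the sequences are shown only to place the element in genes that fell. Matches are in capitals on the gene's strand.
IFIT3: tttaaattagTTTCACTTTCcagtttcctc
IFIT1: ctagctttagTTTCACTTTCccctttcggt
DDX60: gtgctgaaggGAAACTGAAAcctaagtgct
ISG15: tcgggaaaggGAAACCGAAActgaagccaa
GBP1: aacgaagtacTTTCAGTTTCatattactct
They lie at chr10:89327865-89327894 (plus strand) for IFIT3, chr10:89392497-89392526 (plus) for IFIT1, chr4:168318786-168318815 and chr4:168318821-168318850 (minus, the second shown) for DDX60, chr1:1013380-1013409 (plus) for ISG15 and chr1:89065316-89065345 (minus) for GBP1. In IFIT3, IFIT1 and GBP1 the element reads on the opposite strand. IFIT3 held 4 matches over its 2 listed starts. ISG15, a ubiquitin-like modifier, was at 288.52 to 341.77 FPKM in control, 225.1 to 250.22 with E2F1 siRNA and 159.95 to 171.08 with E2F3 siRNA. GBP1, a guanylate-binding protein, was at 9.87 to 9.97 FPKM in control, 2.41 to 3.49 with E2F1 siRNA and 6.95 to 7.87 with E2F3 siRNA. ISG15 and GBP1 thus differed in which siRNA gave the lower values, and both were picked for their promoters with their values known.

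Of 20 NF-kB targets and cytokines, 5 fell (25% against 7.7% of all genes) and 2 rose (10% against 12.4%). After IL6, the strongest by adjusted p were IL1B and ICAM1. IL1B, interleukin 1 beta, was at 15.07, 12.74 and 14.62 FPKM in control, 3.25, 3.46 and 3.1 with E2F1 siRNA and 10.69, 11.17 and 10.23 with E2F3 siRNA (log2 -1.10), and with the knockdowns as 1 group its call was lost (adjusted p = 0.117). ICAM1, an adhesion molecule for leukocytes, was at 33.92 to 36.28 FPKM in control and 21.33 to 25.16 after knockdown (log2 -0.59; difference between the knockdowns 0.03, limma adjusted p = 0.711). SOD2, mitochondrial superoxide dismutase, rose by 0.44 and NFKBIB, an inhibitor of NF-kB, by 0.46. In the 1-group fit 3 fell.

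Of 25 genes listed as basal keratinocyte and hemidesmosome genes, 13 fell (52% against 7.7% of all genes) and 1 rose (4% against 12.4%). Basal keratinocytes are the proliferating layer of squamous epithelium, and hemidesmosomes anchor them. The 13 include KRT7, KRT8 and KRT18, which are keratins of simple epithelium and not of the basal layer. The median was -0.35, with -0.37 after E2F1 siRNA and -0.33 after E2F3 siRNA. KRT17 (chr17:41619441-41624842), a basal keratin, was at 750.72, 740.17 and 809.66 FPKM in control, 387.8, 387.06 and 425.63 with E2F1 siRNA and 354.98, 348.6 and 401.38 with E2F3 siRNA. All 6 knockdown values were far below control and the siRNA groups overlapped (log2 -0.94 after E2F1 siRNA and -1.06 after E2F3 siRNA; pooled limma adjusted p = 1.28e-06). KRT14, the keratin of basal cells, was at 52.9 to 58.76 FPKM in control, 32.52 to 37.17 with E2F1 siRNA and 19.13 to 20.47 with E2F3 siRNA (log2 -1.06). ITGB4, the integrin chain of hemidesmosomes, was at 125.86, 117.22 and 128.99 FPKM in control, 59.47, 63.28 and 55.76 with E2F1 siRNA and 57.6, 67.75 and 61.84 with E2F3 siRNA (log2 -1.01). LAMB3, a chain of laminin 332, fell by 0.66. SOX2, a stem cell factor, was the riser, from 1.65 to 2.15 FPKM to 3.11 to 3.77 (log2 0.63). Of the 13, 8 differed between the knockdowns, 4 with the larger fall after each siRNA, and 12 fell with the knockdowns as 1 group.

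The 8 squamous epithelial markers set down for this cell line included 7 that fell (87.5% against 7.7% of all genes), some of them also in the basal list. The other, EPCAM, overlapped control. TP63, the master regulator of squamous epithelium, was at 44.52 to 48.08 FPKM in control and 25.59 to 33.61 after knockdown. It was thus lower after knockdown but present in every library. Of 18 markers of leukocytes, endothelium, fibroblasts, neurons and muscle, 12 were under 1 FPKM in every library and none was at 0 in all. Their sum was 43.6 to 45.3 FPKM in control, 43.0 to 45.6 with E2F1 siRNA and 40.5 to 42.8 with E2F3 siRNA, mostly from CD68, COL1A1 and CSF1R. CSF1R fell from 7.28 to 7.6 FPKM to 3.92 to 6.23. COL1A1 was at 12.34 to 13.54 FPKM in control, 16.4 to 18.73 with E2F1 siRNA and 12.44 to 14.77 with E2F3 siRNA, so it passed as higher (log2 0.28; limma adjusted p = 0.0114) with libraries that overlapped control, and the sum joins opposite changes. The part of these markers in the results was not tested.

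Squamous differentiation genes fell in 7 of 20 (35% against 7.7% of all genes) and rose in 1 (5% against 12.4%), with a median of -0.45. KLF4, a differentiation factor, was at 35.92, 34.16 and 36.82 FPKM in control, 25.09, 23.68 and 23.79 with E2F1 siRNA and 15.65, 14.89 and 15.56 with E2F3 siRNA (log2 -0.85, SE 0.04; adjusted p = 1e-06). PPL, the cornified envelope protein periplakin, fell by 0.62 and KRT80 by 0.61. EVPL, envoplakin, the partner of periplakin, rose from 4.36 to 4.72 FPKM to 5.41 to 7.24 (log2 0.37). The 1-group fit left 6 fallers.

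Of 41 mesenchymal and matrix genes, 9 fell (22.0% against 7.7% of all genes), with a median of -0.18. None rose by the limma rule, with 2 passing as higher with overlapping libraries. A higher pooled mean was seen in 3 at an unadjusted p under 0.05, and 1 rose without control replicate 3 or without E2F1 siRNA replicate 2. The median was -0.44 with E2F1 siRNA and 0.10 with E2F3 siRNA, and all 6 of the 9 that differed between knockdowns fell more after E2F1 siRNA. PLAU, urokinase, was at 28.16, 26.8 and 30.23 FPKM in control, 6.85, 7.02 and 6.76 with E2F1 siRNA and 18.99, 18.1 and 19.47 with E2F3 siRNA (log2 -1.23), and it did not pass with the knockdowns as 1 group (adjusted p = 0.0607). FN1, fibronectin, was at 48.82 to 55.39 FPKM in control, 26.54 to 28.05 with E2F1 siRNA and 36.91 to 38.1 with E2F3 siRNA (log2 -0.70).

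**Figure D4:**
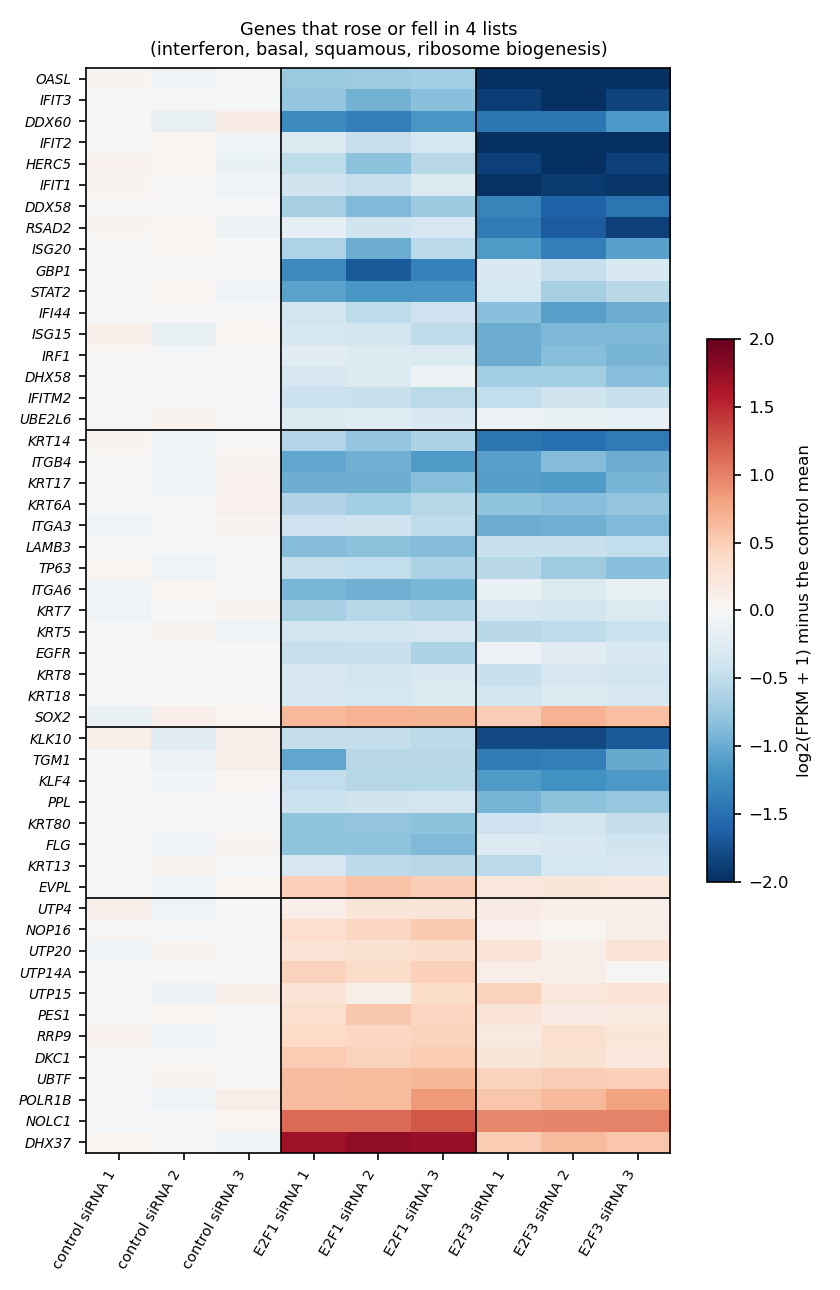
Colour shows log2(FPKM + 1) minus the control mean, with colours saturating at 2 either way, for genes (rows) that rose or fell in 4 lists, by library (columns). From top to bottom the blocks are interferon response, basal keratinocyte, squamous differentiation and ribosome biogenesis genes. OASL, IFIT1 and IFIT2 are darkest in the 3 E2F3 siRNA columns, GBP1 in the 3 E2F1 siRNA columns.

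Of 41 ribosome biogenesis genes, 12 rose (29.3% against 12.4% of all genes). None fell by the limma rule, with 1 passing as lower with overlapping libraries and 3 lower at an unadjusted p under 0.05. NOLC1 (chr10:102152176-102163871), a nucleolar chaperone of ribonucleoproteins, was at 58.73, 59.88 and 61.7 FPKM in control, 133.63, 132.53 and 144.3 with E2F1 siRNA and 117.62, 119.24 and 120.73 with E2F3 siRNA (log2 1.07, SE 0.04; adjusted p = 1.14e-07). DHX37 (chr12:124946825-124989122), a helicase of the small subunit processome, was at 10.75, 10.67 and 9.98 FPKM in control, 36.29, 38.05 and 37.21 with E2F1 siRNA and 15.3, 16.86 and 15.79 with E2F3 siRNA (log2 1.15). UBTF, the RNA polymerase I factor, rose by 0.56. Of the 12, 8 differed between the knockdowns, and all 8 rose more after E2F1 siRNA. The count was 8 under RLE scaling, 8 with the knockdowns as 1 group and 11 to 17 when single libraries were left out.

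Proteasome subunits rose in 11 of 34 (32.4% against 12.4% of all genes), and PSMA1 fell (2.94% against 7.7%). PSMC3, a base ATPase, was at 424.39, 400.79 and 387.53 FPKM in control, 616.0, 602.95 and 628.87 with E2F1 siRNA and 470.29, 534.15 and 480.52 with E2F3 siRNA (log2 0.45; adjusted p = 5.62e-05). PSMB1, a core subunit, rose by 0.25. PSMA1, another core subunit, was at 324.09, 340.81 and 312.96 FPKM in control, 164.58, 162.99 and 173.74 with E2F1 siRNA and 240.69, 221.27 and 242.21 with E2F3 siRNA (log2 -0.72), so all 6 knockdown libraries lay below control. The 1-group fit left 7 risers.

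Of 76 mitochondrial ribosomal proteins, 16 rose (21.1% against 12.4% of all genes) and 3 fell (3.95% against 7.7%), with a median of 0.09. MRPS34, of the small subunit, rose from 76.19 to 79.23 FPKM to 108.24 to 140.68 (log2 0.66), and MRPS18A fell by 0.34. As 1 group 7 rose and 1 fell, and MRPS18A did not pass (limma adjusted p = 0.0522). Cytosolic ribosomal proteins rose in 2 of 78 (2.56% against 12.4% of all genes) and fell in 6 (7.69% against 7.7%). Changes of these genes lay between -0.23 and 0.29. RPS26 was the higher riser at 0.29. The count of 6 was 0 in limma's 1-group fit, 2 without control replicate 1, 3 without control replicate 2 or E2F1 siRNA replicate 1, and 2 with no filter on low values. The count of 2 was 5 without E2F3 siRNA replicate 1.

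Nuclear genes of the respiratory chain rose in 8 of 59 (13.6% against 12.4% of all genes) and fell in 4 (6.78% against 7.7%). SDHB, of complex II, rose by 0.35, and COX7B, of complex IV, fell by 0.23. Leaving out any 1 of the control libraries left 5 risers, as did fitting the knockdowns as 1 group, which left 2 fallers. Among 13 mitochondrially encoded genes, 2 rose (15.4% against 12.4% of all genes) and 2 fell (15.4% against 7.7%). MT-ND3 rose by 0.20 and MT-ND4 fell by 0.22. None rose under RLE or upper-quartile scaling, or with no filter on low values, and 1 rose without control replicate 1. In the 1-group fit 1 rose and none fell by limma (MT-ND4, adjusted p = 0.0759), where the 3-group model gave 4 lower at an unadjusted p under 0.05. Mitochondrial genes made up 16.1 to 17.0% of all FPKM in control, 14.4 to 15.8% with E2F1 siRNA and 16.9 to 17.5% with E2F3 siRNA. All E2F1 siRNA libraries thus lay below every control library, and the E2F3 siRNA libraries overlapped the top of the control range. The part of this share in the results was not tested.

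Of 40 hypoxia and glycolysis genes, 5 fell (12.5% against 7.7% of all genes) and 2 rose (5% against 12.4%). SLC2A1, the glucose transporter GLUT1, was at 248.88, 228.1 and 241.91 FPKM in control, 80.74, 78.45 and 71.79 with E2F1 siRNA and 137.31, 163.48 and 137.3 with E2F3 siRNA (log2 -1.17, SE 0.06; adjusted p = 1.28e-06). EGLN3, a hydroxylase of HIF, fell by 0.69. HIF1A, the hypoxia factor, fell by 0.24 and VHL, which marks it for destruction, rose by 0.29; the knockdowns differed by -0.02 and 0.03 (limma adjusted p = 0.803 and 0.756). Of 34 genes listed for cholesterol and fatty acid metabolism, 6 fell (17.6% against 7.7% of all genes) and 2 rose (5.88% against 12.4%). MSMO1, a sterol oxidase, fell by 0.52, ELOVL6, a fatty acid elongase, by 0.51 and FADS1, a fatty acid desaturase, by 0.39. PMVK, phosphomevalonate kinase, rose by 0.70, from 6.54 to 7.6 FPKM to 9.5 to 13.65. In the 1-group fit 1 fell and 1 rose, and calls were lost for MSMO1 (limma adjusted p = 0.0681) and ELOVL6 (limma adjusted p = 0.0889). The risers numbered 1 without control replicate 2 or 3, E2F1 siRNA replicate 1 or E2F3 siRNA replicate 3.

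Among 38 genes for protein folding stress and amino acid shortage, 5 fell (13.2% against 7.7% of all genes) and 2 rose (5.26% against 12.4%). There was 1 riser when any single control library, E2F1 siRNA replicate 1 or 3 or E2F3 siRNA replicate 1 was left out. SLC7A5, the leucine transporter LAT1, was at 313.57 to 326.56 FPKM in control, 151.86 to 160.47 with E2F1 siRNA and 253.23 to 277.79 with E2F3 siRNA (log2 -0.66). Its heavy chain SLC3A2 fell by 0.39. SESN2, the leucine sensor sestrin 2, fell from 12.69 to 13.42 FPKM to 7.21 to 9.16 with E2F1 siRNA and 4.45 to 4.67 with E2F3 siRNA (log2 -0.96). RLE scaling gave 8 fallers. In the 1-group fit 3 fell, and SLC7A5 did not pass (adjusted p = 0.0777).

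Glycan and lysosome genes were mixed. Of 26 oligosaccharyltransferase and glycan trimming genes, GANAB and B4GALT2 rose (7.69% against 12.4% of all genes). RPN2, B4GALT5 and TMEM258 fell (11.5% against 7.7%). B4GALT5, a galactosyltransferase of glycolipids, was at 155.35, 152.83 and 157.27 FPKM in control, 83.45, 83.79 and 81.93 with E2F1 siRNA and 95.57, 95.31 and 93.15 with E2F3 siRNA (log2 -0.80; adjusted p = 1.25e-07). Of 36 lysosome genes, 5 fell (13.9% against 7.7% of all genes) and 2 rose (5.56% against 12.4%). NEU1, the lysosomal sialidase, fell from 35.57 to 38.02 FPKM to 20.14 to 24.15 (log2 -0.74). Fitted as 1 group, 1 gene of each list fell.

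Of 29 p53 targets, 7 fell (24.1% against 7.7% of all genes) and 3 rose (10.3% against 12.4%). CDKN1A and SESN2, given above, had the smallest adjusted p of the fallers, followed by GADD45B, a stress-induced growth arrest gene (log2 -0.52). XPC, the damage sensor of excision repair, rose by 0.58, from 11.8 to 14.13 FPKM to 18.1 to 21.85. BBC3, the death activator PUMA, rose by 0.49, but not with the knockdowns as 1 group (adjusted p = 0.0541), where 1 of the 3 rose. Of 26 apoptosis genes, 4 rose (15.4% against 12.4% of all genes) and 2 fell (7.69% against 7.7%). BID, a link from death receptors to mitochondria, rose by 0.33, and MCL1, a survival protein, fell by 0.27. In the 1-group fit 2 apoptosis genes rose and none fell (MCL1, limma adjusted p = 0.0614), and 1 fell without control replicate 1.

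The small RNA silencing machinery processes microRNAs and carries out siRNA silencing. Of 16 of its genes, 2 rose (12.5% against 12.4% of all genes) and 3 fell (18.8% against 7.7%). DROSHA, the nuclear enzyme that cuts primary microRNAs, was at 29.79, 33.56 and 31.57 FPKM in control, 57.91, 57.61 and 56.25 with E2F1 siRNA and 53.28, 52.6 and 58.03 with E2F3 siRNA, with overlapping siRNA groups (log2 0.80, SE 0.05; adjusted p = 2.32e-06). AGO1, an Argonaute, fell from 5.28 to 5.74 FPKM to 3.38 to 4.35 (log2 -0.44) and XPO5, which exports precursors, by 0.33. TARBP2, a partner of DICER1, rose by 0.20 but did not pass without control replicate 1 (log2 0.18) or 2 (log2 0.20). DICER1 fell by 0.53, and the call was lost when any control library was left out (log2 -0.48 to -0.58), without E2F1 siRNA replicate 3 (log2 -0.50) or without E2F3 siRNA replicate 2 (log2 -0.49). Its E2F3 siRNA libraries were spread from 13.29 to 25.27 FPKM.

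Actin genes split, with 5 of 27 rising (18.5% against 12.4% of all genes) and 5 falling (18.5% against 7.7%). TPM2, a tropomyosin like TPM4, was at 8.14 to 8.52 FPKM in control, 9.76 to 10.54 with E2F1 siRNA and 20.15 to 22.71 with E2F3 siRNA (log2 0.78). FLNA, the actin crosslinker filamin A, fell by 0.36, with a difference between the knockdowns of 0.03 (limma adjusted p = 0.760). The risers numbered 3 under RLE scaling or without any 1 of the control libraries, and 1 rose and 1 fell with the knockdowns as 1 group, where TPM2 did not pass (adjusted p = 0.118). Of 21 immediate early genes, 3 rose (14.3% against 12.4% of all genes) and 1 fell (4.76% against 7.7%). IER2 rose from 19.26 to 22.18 FPKM to 32.94 to 45.99 (log2 0.83) and ZFP36, which destabilises cytokine transcripts, fell by 0.55. The fallers numbered 2 with either other scaling (RLE or upper quartile), with the GC and length correction, and without control replicate 1 or E2F3 siRNA replicate 2, and 3 without control replicate 2. Of 13 genes of the EGFR family and its ligands, EGFR fell by 0.36 and the ligand NRG1 by 0.42, the latter not with the knockdowns as 1 group (adjusted p = 0.122). These 2 made up 15.4% of the list, against 7.7% of all genes. Of 23 genes of TGF-beta ligands, receptors and SMADs, 3 rose, a share (13.04%) close to the 12.4% of all genes. In the same list 4 fell (17.39% against 7.7%). SKI, a repressor of SMAD signalling, rose by 0.61 and the type I receptor TGFBR1 by 0.50, while SMURF1, a ubiquitin ligase for the receptor, fell by 0.42. In the 1-group fit 2 fell.

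**Figure D5:**
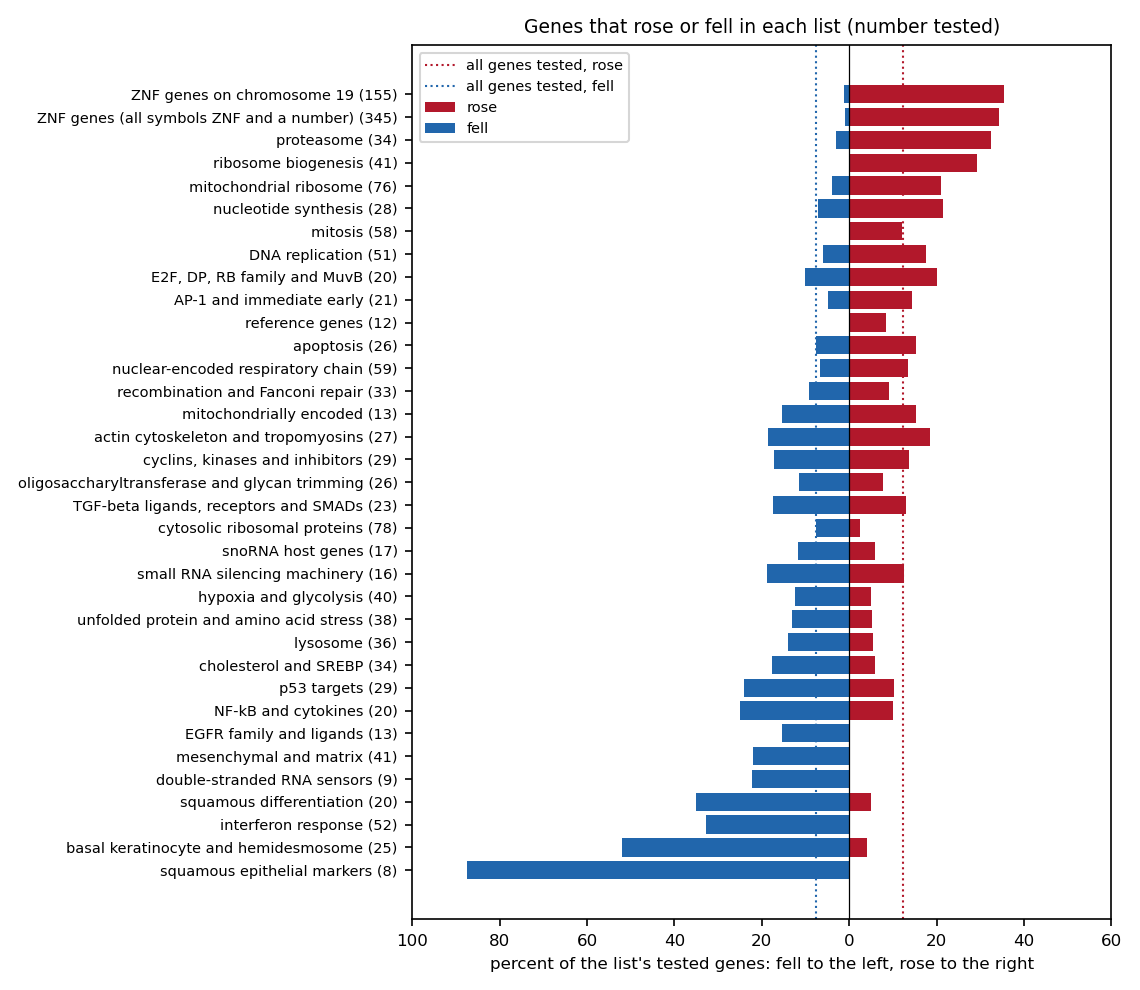
Percent of each list's tested genes that rose (red, right) or fell (blue, left), with the number tested in brackets and dotted lines at the shares over all genes tested (12.4% rose, 7.7% fell). The ZNF, proteasome and ribosome biogenesis lists reach farthest to the right, and the squamous, basal and interferon lists farthest to the left.

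Long noncoding RNAs made up 70 of the 1715 genes that rose (4.08%) and 38 of the 1061 that fell (3.58%), against 1220 of 13777 genes tested (8.86%). H19 (chr11:1995176-2001470), an imprinted transcript, was at 667.49, 633.8 and 693.57 FPKM in control, 428.77, 400.5 and 407.92 with E2F1 siRNA and 197.77, 229.8 and 222.43 with E2F3 siRNA (log2 -1.15, SE 0.05; adjusted p = 4.16e-07). NEAT1, the scaffold of paraspeckles, was at 179.15, 198.98 and 195.64 FPKM in control, 113.51, 131.63 and 122.7 with E2F1 siRNA and 80.44, 73.47 and 78.98 with E2F3 siRNA (log2 -0.96). In both the E2F3 siRNA libraries were lowest. IGFL2-AS1 fell by 0.78 and ESRG by 0.67, with differences between the knockdowns of 0.20 and 0.17 (limma adjusted p = 0.150 and 0.207). The largest rise was sought among lncRNAs without clone names and with a mean of at least 5 FPKM in control or pooled knockdown. It was that of FAM201A, from 2.12 to 2.65 FPKM to 4.34 to 6.06 (log2 0.84), followed by GPRC5D-AS1 (log2 0.67). FAM201A met this floor only in the knockdown mean, where it was high. Of 17 snoRNA host genes 1 rose (5.88% against 12.4% of all genes) and 2 fell (11.8% against 7.7%). There were 2 risers without control replicate 2 or 3 or E2F1 siRNA replicate 2. ZFAS1 fell by 0.24, and it overlaps ZNFX1 on the opposite strand, whose pooled change was -0.68.

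RF02195 and RNA5-8SN2 were listed at 0 in all 6 knockdown libraries. RF02195, a conserved RNA segment that overlaps an exon of TP53TG1 on the opposite strand, was listed at 8.33, 60.32 and 23.48 FPKM in control, and RNA5-8SN2, a copy of 5.8S ribosomal RNA given under 4 identifiers with equal values, at 143.93, 41.11 and 183.23. Both are short, their control values were far apart, and a value of 0 in such files can be a failed estimate, so no fold is given.

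Members were spread over the genome and over levels. The share that rose was 7.55% in the lowest quartile of control FPKM and 14.7% in the highest, and the share that fell went from 3.40% to 11.8%, so members were more frequent among high genes. By exon GC content, 12.1, 15.0, 12.5 and 10.2% rose from the lowest quartile to the highest. By chromosome, leaving out the mitochondrial genome, the share that rose lay between 8.86% and 16.1%. At the edge of the rule, RABGGTB was inside with a lowest knockdown value of 110.36 FPKM against a highest control value of 110.33, and RAB34 with 74.57 against a lowest control value of 74.58. YIPF3 and NBN were outside, each with a knockdown value equal to a control value, 46.78 and 27.49 FPKM.

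Library scaling moved the balance between directions. With RLE scaling 1511 genes lay above and 1402 below control, in place of 1825 and 1115, and 2241 passed as higher and 2659 as lower. The median pooled change over all genes was 0.02 as deposited and -0.01 after RLE scaling. Steps in the FPKM of low genes gave relative depths, with control replicate 1 set to 1. They ranged from 0.868 to 1.21 in control, from 0.906 to 1.15 with E2F1 siRNA and from 0.997 to 1.01 with E2F3 siRNA, and the control range held all knockdown libraries.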

How the data were processed

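RNA sequencing was measured in 9 libraries of HK1 cells. The values deposited by the authors are FPKM per gene, per the file headers. Trimmomatic, TopHat, HISAT2, HTSeq and DESeq with GRCh38 are named per the submitters' processing notes, but no source used here states their versions, roles or order, or the strand of the libraries. Of 59107 entries 58381 had an Ensembl identifier; 56933 matched GENCODE 29 exactly and 1328 after the version was dropped. The 726 assembled loci without one were not tested. Coordinates of genes are those of GENCODE 29 on GRCh38.

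Genes that reached 1 FPKM in 3 or more libraries were taken as log2(FPKM + 1) and fitted in limma 3.58.1 (R 4.3.3, with trend) with a mean per siRNA group, two-sided, with Benjamini-Hochberg adjustment over 13777 genes. The fit was tested on simulated data. The members and the 36 gene lists were chosen with earlier results of these data known. Genes named are E2F1 to E2F8, the 12 protein-coding genes and 5 lncRNAs with the largest change each way (at least 5 FPKM, no overlap), up to 3 per list and direction by adjusted p, the extremes of the difference between knockdowns, and genes at the edge of the rule. No source used here states the depth in fragments. At most 0.726% of values were identical in any pair of libraries. Alternatives were other scaling, pseudocount (0.1), filters, models, thresholds, a GC and length correction (loess, span 0.3) and leaving out each library. Replicate numbers 1 to 3 are shared by all groups, but deviations of same-numbered libraries correlated only weakly, so no pairing was used. Some genes that this rule names are not reported here.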

Additional observations from a re-analysis of the deposited data

Results flagged for a closer look

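Ranked here were protein-coding genes above the floor of 5 FPKM that rose or fell by at least 1 on the log2 scale. Of these, 5 stood out because the 2 knockdowns differed most in the direct limma comparison of E2F3 with E2F1 siRNA. The difference was 3.20 on the log2 scale for LAPTM4B (adjusted p = 3.98e-11) and -2.46 for RPN2 (adjusted p = 6.86e-11), whose values are given above. PRADC1 differed by 1.87, at 8.08 to 9.2 FPKM in control, 1.07 to 1.56 after E2F1 siRNA and 7.35 to 7.84 after E2F3 siRNA. IFIT2 differed by -1.81, at 48.4 to 52.42 FPKM in control, 36.48 to 41.44 after E2F1 siRNA and 9.21 to 11.33 after E2F3 siRNA. HMOX1, the haem-degrading enzyme, differed by 1.73, at 13.01 to 14.23 FPKM in control, 2.39 to 3.33 after E2F1 siRNA and 10.72 to 12.79 after E2F3 siRNA. None of the 5 passed the pooled limma test with the knockdowns as 1 group (adjusted p between 0.138 and 0.242). They were picked for the gap between the siRNAs, which that fit counts as spread, so this outcome is no separate result.

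Assembled loci without a gene identifier were not among the genes tested. Of 726, 641 reached 1 FPKM in at least 3 libraries, and 44 of them (6.86%) lay above all control libraries in all 6 knockdown libraries, with 50 (7.80%) below. These shares are under the 13.2% and 8.09% of all genes tested, so the counts show nothing particular to these loci.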

How the results depend on the processing

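With the 6 knockdown libraries as 1 group, limma called 1705 genes (1109 higher, 596 lower). At an adjusted p under 0.01 it called 3117 (1615 and 1502), and with a log2 change of at least 1 it called 134 (65 and 69). Of the 2940 genes on one side, 1110 differed between the knockdowns at 0.05, 719 at 0.01 and 40 with a difference of at least 1. Leaving out 1 library gave 3878 to 4872 calls (2059 to 2588 higher, 1771 to 2284 lower), 1953 to 2246 genes above, 1189 to 1454 below and 981 to 1329 that differed. With the replicate number as a block 4727 genes passed (2526 higher, 2201 lower) and 1034 of the 2940 differed. Deviations of same-numbered libraries correlated only weakly (-0.11 to 0.11). These correlations were negative between control and knockdown libraries and positive between the knockdowns (0.03 to 0.11). The labels do not say what the number stands for. The pooled change of E2F4, 0.00 as reported, was -0.033 under RLE scaling, -0.0077 under upper-quartile scaling, and -0.053 to 0.035 when single libraries were left out (-0.0072 without E2F1 siRNA replicate 2, -0.023 without E2F3 siRNA replicate 2). Of 191 named genes, 65 lost their call with the knockdowns as 1 group, 6 under RLE scaling, 3 in the fit corrected for GC and length and 5 with the block. The cause was not tested. FPKM keep no counts, so counting error is not in these tests.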
